A study of Mus musculus with 3 samples.

Results

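Described here are the TCRα chains that use TRAJ11, TRAJ9, TRAJ6, TRAJ5 or TRAJ2, 5 joining (J) segments that lie close to the constant gene Trac and are therefore called C-proximal. A chain was counted when its J gene was 1 of these 5, the chain was productive, and the cell was in the deposited expression matrix and held exactly 1 productive TCRα chain. There were 574 such cells among 6982 cells with exactly 1 productive TCRα chain: 60 with TRAJ11, 191 with TRAJ9, 128 with TRAJ6, 130 with TRAJ5 and 65 with TRAJ2. The members were named by J gene, with earlier results of these data known.

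The cells were thymocytes of 8 pooled female TCliB+ x TCRa+/- x Foxp3-GFP mice aged 7 to 12 weeks. All cells thus share the TCliβ receptor β chain, 1 intact TCRα allele and the Foxp3 reporter, and vary mainly in the TCRα chain. A sort for Vα2 at the cell surface, which TRAV14 genes encode, gave 6 populations, each with its own hashtag. DP are CD4+CD8+ thymocytes, and CD4 SP are cells with CD4 alone; the gate the labels spell out excludes CD8, CD73, CD25 and FOXP3 and is read here as theirs. Regulatory T cells (Treg) were sorted without or with CD73, and their progenitors (TRP) as CD25+ cells or as Foxp3lo cells. Foxp3 is the lineage factor of Treg, CD25 a subunit of an interleukin receptor and CD73 a surface nucleotidase. DP cells came from whole thymus and the other populations from thymus depleted of CD8+ cells. All 6 entered 1 set of libraries, so there was 1 sorted sample per population, no replicate and no test between populations, and the mouse of origin of each cell is not recorded in the labels.

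A TCRα gene is assembled in DP thymocytes, when the RAG recombinase joins a TRAV segment to a TRAJ segment. The join can be replaced on the same allele by a further one, which takes a TRAV segment further upstream and a TRAJ segment further downstream, until positive selection stops recombination or the segments run out. TRAJ segments near the constant gene are for this reason regarded as products of late rounds of rearrangement.

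The number of cells with exactly 1 productive chain was 1849 for CD4 SP, 1783 for CD25+ TRP, 1266 for DP, 1057 for CD73+ Treg, 804 for Foxp3lo TRP and 223 for CD73- Treg. The median TCR contig support was 14 to 18 unique molecular identifiers (UMIs) for each of the 5 segments and 18 for all other segments. The matrices used here carry no gene names, so the sort was not checked by marker genes and the authors' clusters keep their numbers. Shares are given with exact Clopper-Pearson 95% intervals, which cover counting error alone, as clonal cells are not independent draws. A segment was called different between groups where these intervals did not overlap, among segments with at least 10 cells over both groups. The same reading of all TRAJ segments gives the background quoted beside each count, for 8 pairs of populations and for pairs of DP clusters. Intervals compared between other pairs have no such background.

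In GENCODE M21 (GRCm38) all 5 segments are TCR J genes of chromosome 14, plus strand, and Trac is at chr14:54220521-54224206. TRAJ11 is at chr14:54207139-54207197, 13.3 kb from Trac, and TRAJ9 at chr14:54209393-54209450, 11.1 kb from it. TRAJ6 is at chr14:54212688-54212749 (7.77 kb), TRAJ5 at chr14:54213777-54213838 (6.68 kb) and TRAJ2 at chr14:54217836-54217901 (2.62 kb). TRAJ4 and TRAJ7, with 292 and 305 cells, lie in the same stretch but are outside the group. TRAJ3 was used by 0 cells although annotated as a J gene, and Traj1 and Traj8 are annotated as pseudogenes. The germline sequences are shown because each sets the end of the CDR3, the loop that contacts peptide. Capitals mark the 4 codons of the conserved Phe-Gly-X-Gly motif, whose phenylalanine is the last CDR3 residue.
TRAJ11: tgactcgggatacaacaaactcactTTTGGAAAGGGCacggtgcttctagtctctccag
TRAJ9: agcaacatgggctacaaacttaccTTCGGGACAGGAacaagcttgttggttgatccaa
TRAJ6: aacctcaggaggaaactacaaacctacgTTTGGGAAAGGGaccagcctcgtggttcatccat
TRAJ5: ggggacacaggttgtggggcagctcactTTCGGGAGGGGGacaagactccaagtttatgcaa
TRAJ2: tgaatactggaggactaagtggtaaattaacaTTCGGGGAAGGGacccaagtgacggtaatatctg

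The J part up to the phenylalanine codon is 28 bases long in TRAJ11, 27 in TRAJ9, 31 in TRAJ6 and TRAJ5, and 35 in TRAJ2. The CDR3 sequences carried by most cells follow as their most frequent nucleotide sequence, because the results by population turn on them. Capitals mark bases assigned to the germline J segment, and lower case marks the TRAV14 end and inserted bases. Bases that match both germline ends were counted with TRAV14 and stand in lower case. All 8 TRAV14 copies seen here give the same germline bases from the cysteine codon on, so these letters do not tell the copies apart.
TRAV14 end: tgtgcagcaagtg
TRAJ9 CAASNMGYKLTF: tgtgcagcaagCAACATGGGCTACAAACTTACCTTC
TRAJ9 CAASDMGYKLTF: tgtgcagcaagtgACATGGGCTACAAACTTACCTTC
TRAJ9 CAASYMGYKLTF: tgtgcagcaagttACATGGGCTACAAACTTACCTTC
TRAJ6 of 13 residues: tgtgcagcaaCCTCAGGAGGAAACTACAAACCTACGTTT
TRAJ5 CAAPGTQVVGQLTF: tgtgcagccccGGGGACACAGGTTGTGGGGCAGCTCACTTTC
TRAJ5 of 15 residues: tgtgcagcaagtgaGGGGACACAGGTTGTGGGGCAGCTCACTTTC
TRAJ2 of 16 residues: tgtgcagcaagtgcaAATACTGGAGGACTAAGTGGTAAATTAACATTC
TRAJ11 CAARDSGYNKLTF: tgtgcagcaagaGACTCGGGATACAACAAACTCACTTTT

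The combined share of the 5 segments was highest in CD4 SP and DP and lowest in Foxp3lo TRP. It was 9.64% in DP (122 cells, 8.07 to 11.4), 9.95% in CD4 SP (184 cells, 8.62 to 11.4) and 7.29% in CD25+ TRP (130 cells, 6.13 to 8.60). It was 5.97% in Foxp3lo TRP (48 cells, 4.43 to 7.84), 7.62% in CD73- Treg (17 cells, 4.50 to 11.9) and 6.91% in CD73+ Treg (73 cells, 5.45 to 8.61). The intervals of CD25+ TRP, Foxp3lo TRP and CD73+ Treg lay below that of CD4 SP, all but Foxp3lo TRP by a narrow margin, and Foxp3lo TRP also lay below DP. DP and CD4 SP overlapped almost fully. With each different CDR3 counted once the share was 10.9% in CD4 SP (8.96 to 13.1), 8.47% in CD25+ TRP (6.83 to 10.4), 7.74% in Foxp3lo TRP (5.58 to 10.4) and 8.92% in CD73+ Treg (6.83 to 11.4), and these intervals overlapped, as did that of DP (9.89%, 8.18 to 11.8). Leaving out the most frequent CDR3 of each segment also made CD25+ TRP (7.62%), Foxp3lo TRP (6.46%) and CD73+ Treg (7.26%) overlap CD4 SP (10.2%), and Foxp3lo TRP overlap DP (9.70%). In CD73+ Treg the share was 4.98% (3.60 to 6.70) without clusters that hold under 5% of a population. Without cluster 9 it was 7.53% (5.82 to 9.55), which overlapped CD4 SP. CD25+ TRP also overlapped CD4 SP with TRAV14 chains only (7.36% and 9.97%) and without the small clusters (7.71% and 10.1%). Foxp3lo TRP also overlapped DP with all productive contigs (6.17% and 9.33%) and in cells with at least 1000 UMIs (6.02% and 8.44%).

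**Figure D1:**
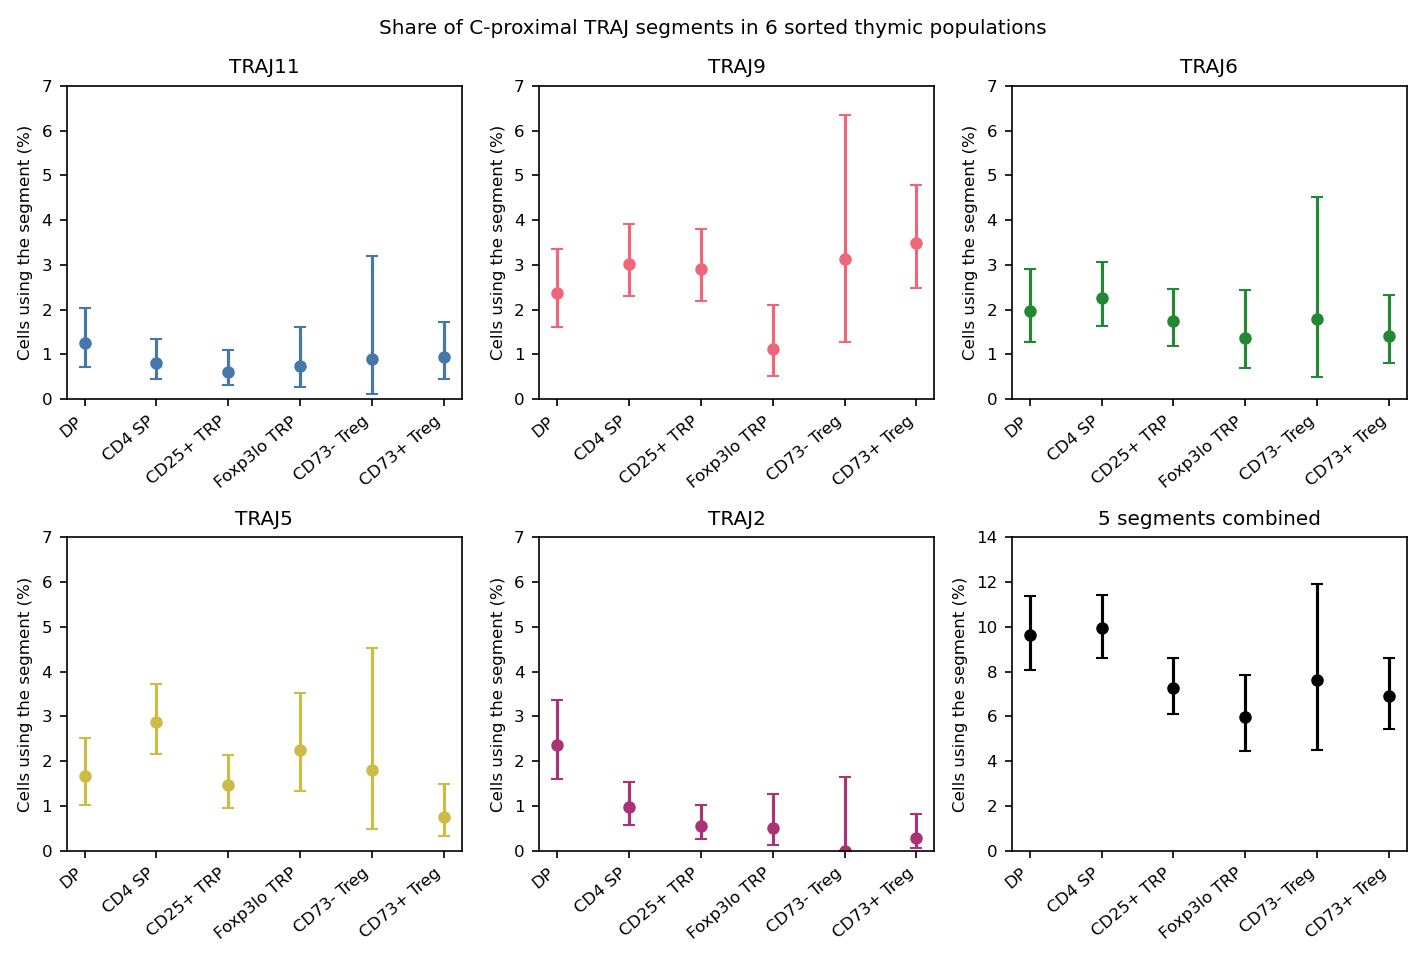
Share of cells using each segment, in percent of cells with exactly 1 productive TCRα chain (y axis), by sorted population (x axis), with points for the share and bars for the exact 95% interval. TRAJ2 stands at 2.37% in DP and at most 0.973% elsewhere, while TRAJ9 stands at 1.12% in Foxp3lo TRP and at 2.37% or more in the other populations.

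The totals of DP and CD4 SP overlapped, and TRAJ2 made up a larger part of that of DP by cells. TRAJ2, the annotated J gene closest to Trac, supplied 24.6% of the 122 DP chains (17.2 to 33.2) and 9.78% of the 184 CD4 SP chains (5.90 to 15.0). With each different chain counted once these were 24.8% (17.4 to 33.5) and 11.1% (6.35 to 17.7), which just overlapped. TRAJ5 supplied 17.2% (11.0 to 25.1) of these chains in DP and 28.8% (22.4 to 35.9) in CD4 SP, with overlapping intervals. In CD73+ Treg TRAJ9 alone supplied 50.7% of the 73 chains (38.7 to 62.6) and TRAJ2 4.11% (0.856 to 11.5).

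TRAJ11, the member farthest from Trac and the least used, had overlapping intervals in all 6 populations. It was used by 16 DP cells (1.26%), 15 CD4 SP cells (0.811%), 11 CD25+ TRP cells (0.617%), 6 Foxp3lo TRP cells (0.746%), 2 CD73- Treg cells (0.897%) and 10 CD73+ Treg cells (0.946%). DP was highest and CD25+ TRP lowest, and their intervals overlapped (0.724 to 2.04 and 0.308 to 1.10). TRAJ11 ranked 34 of 43 TRAJ segments by number of cells. These 60 cells held 44 different CDR3, and none was carried by more than 5 cells.

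TRAJ9 was the most used of the 5, at rank 13 of 43. It was used by 30 DP cells (2.37%, 1.60 to 3.37), 56 CD4 SP cells (3.03%, 2.30 to 3.92) and 52 CD25+ TRP cells (2.92%, 2.19 to 3.81). In Foxp3lo TRP it was found in 9 cells (1.12%, 0.513 to 2.11), in CD73- Treg in 7 (3.14%, 1.27 to 6.36) and in CD73+ Treg in 37 (3.50%, 2.48 to 4.79). Foxp3lo TRP thus stood lowest, below CD4 SP and CD25+ TRP with intervals apart and by 2.71-fold and 2.61-fold. The CD73+ Treg interval also lay above it, and the 5 populations other than Foxp3lo TRP overlapped. The calls against CD4 SP and CD25+ TRP were lost when the most frequent CDR3 of each segment was left out (1.26% in Foxp3lo TRP, 2.37% in CD4 SP, 2.76% in CD25+ TRP). By different CDR3 all 3 calls were lost (1.55% in Foxp3lo TRP, 2.24% in CD4 SP, 2.66% in CD25+ TRP, 3.91% in CD73+ Treg). The CD73+ Treg call was also lost without clusters under 5% of a population (2.92% against 1.15%).

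TRAJ6 stood between 1.37% and 2.27% in the 6 populations. It was carried by 25 DP cells (1.97%), 42 CD4 SP cells (2.27%), 31 CD25+ TRP cells (1.74%), 11 Foxp3lo TRP cells (1.37%), 4 CD73- Treg cells (1.79%) and 15 CD73+ Treg cells (1.42%). All intervals overlapped, that of CD4 SP running from 1.64 to 3.06 and that of Foxp3lo TRP from 0.685 to 2.43. In CD73+ Treg the value was 0.729% (0.268 to 1.58) without clusters under 5% of the population.

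TRAJ5 was highest in CD4 SP and lowest in CD73+ Treg. There were 21 DP cells with it (1.66%, 1.03 to 2.52), 53 CD4 SP cells (2.87%, 2.15 to 3.73) and 26 CD25+ TRP cells (1.46%, 0.955 to 2.13). There were 18 Foxp3lo TRP cells (2.24%, 1.33 to 3.52), 4 CD73- Treg cells (1.79%, 0.491 to 4.53) and 8 CD73+ Treg cells (0.757%, 0.327 to 1.49). CD25+ TRP stood 1.97-fold below CD4 SP with intervals apart, and Foxp3lo TRP lay between them and overlapped both. CD73+ Treg also lay below CD4 SP with intervals apart. By different CDR3 both calls were lost (1.77% in CD25+ TRP, 1.10% in CD73+ Treg, 2.77% in CD4 SP). The CD25+ TRP call was also lost without clusters under 5% of a population (1.52% and 2.71%).

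TRAJ2 was highest in DP and had lower values in each of the other populations. It was used by 30 DP cells (2.37%, 1.60 to 3.37), 18 CD4 SP cells (0.973%, 0.578 to 1.53), 10 CD25+ TRP cells (0.561%, 0.269 to 1.03) and 4 Foxp3lo TRP cells (0.498%, 0.136 to 1.27). It was used by 3 CD73+ Treg cells (0.284%, 0.0586 to 0.827) and by 0 of 223 CD73- Treg cells (limit for a count of 0, 1.35%). The DP interval lay above those of CD4 SP, CD25+ TRP, Foxp3lo TRP and CD73+ Treg, which overlapped one another. The limit for CD73- Treg lies above the values of these 4 populations and below that of DP, and its interval, up to 1.64%, overlaps that of DP. The share in DP was 2.43-fold that in CD4 SP and 8.35-fold that in CD73+ Treg. The difference between DP and CD73+ Treg kept intervals apart under all 8 alternatives run for these shares. By different CDR3, CD4 SP (1.39%), CD25+ TRP (0.985%) and Foxp3lo TRP (0.774%) overlapped DP (2.38%). In cells with at least 1000 UMIs, CD4 SP (0.976%) and Foxp3lo TRP (0.502%) overlapped DP (1.84%). DP cells with 1 of the 5 segments had a median of 1287 UMIs in the expression matrix and other DP cells with a chain 1588, and the part of depth in this result was not tested.

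The calls on the 5 segments are set here against those on all TRAJ segments read the same way. Between CD4 SP and DP 1 of the 5 segments was called (TRAJ2, lower in CD4 SP), where 45.2% of all segments read were called, 26.2% lower and 19.0% higher in CD4 SP. Between CD25+ TRP and CD4 SP 1 of 5 was called (TRAJ5, lower), where 10.0% of segments were called and 5.0% were lower. Between Foxp3lo TRP and CD4 SP 1 of 5 was called (TRAJ9, lower), where 7.5% of segments were called, 5.0% lower and 2.5% higher.
Between CD25+ TRP and Foxp3lo TRP the call on TRAJ9 was the only one of the 37 segments read (2.7%, higher in CD25+ TRP). No member was called between CD73- Treg and CD25+ TRP (0 of 5, 2.86% of all segments), CD73- Treg and Foxp3lo TRP (0 of 3 read, 0.0%) or CD73+ Treg and CD73- Treg (0 of 4 read, 5.88%, with 2.94% higher and 2.94% lower). With 223 chains, CD73- Treg had wide intervals (1.27 to 6.36 for TRAJ9), so that overlap there says little. Between CD73+ Treg and DP 1 of 5 was called (TRAJ2, lower), where 26.2% of segments were called and 14.3% were lower. The background was not read for CD73+ Treg with CD4 SP (TRAJ5) or with Foxp3lo TRP (TRAJ9). It was also not read for CD25+ TRP or Foxp3lo TRP with DP (TRAJ2), so how common such calls are among all segments is not known.

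Within DP, the combined share ranged more widely across the authors' expression clusters than across the sorted populations. This split was chosen after the values were seen. The 5 segments made up 2.87% of chains in cluster 4 (10 of 349, 1.38 to 5.21), 10.3% in cluster 6 (60 of 580, 7.99 to 13.1) and 20.6% in cluster 8 (44 of 214, 15.4 to 26.6). None of the 3 intervals overlapped another. In cluster 11 the segments were in 0 of 45 DP chains, where a count of 0 allows 6.67%.
TRAJ2 was used by 1.72% of chains in cluster 4 (6 cells, 0.633 to 3.70), 1.55% in cluster 6 (9 cells, 0.712 to 2.93) and 7.01% in cluster 8 (15 cells, 3.98 to 11.3). TRAJ6 was used by 0 of 349 chains in cluster 4, which allows 0.860%, 2.24% in cluster 6 (13 cells, 1.20 to 3.80) and 4.67% in cluster 8 (10 cells, 2.26 to 8.43). Of the 30 DP cells with TRAJ2, 15 were thus in cluster 8, the smallest of the 3 by number of chains, whereas clusters 4 and 6 had near-equal shares.
TRAJ9 was in 1 cell of cluster 4 (0.287%, 0.00725 to 1.59), 21 cells of cluster 6 (3.62%, 2.25 to 5.48) and 5 cells of cluster 8 (2.34%, 0.763 to 5.37). TRAJ5 was in 3, 9 and 7 cells and TRAJ11 in 0, 8 and 7 cells of clusters 4, 6 and 8.

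**Figure D2:**
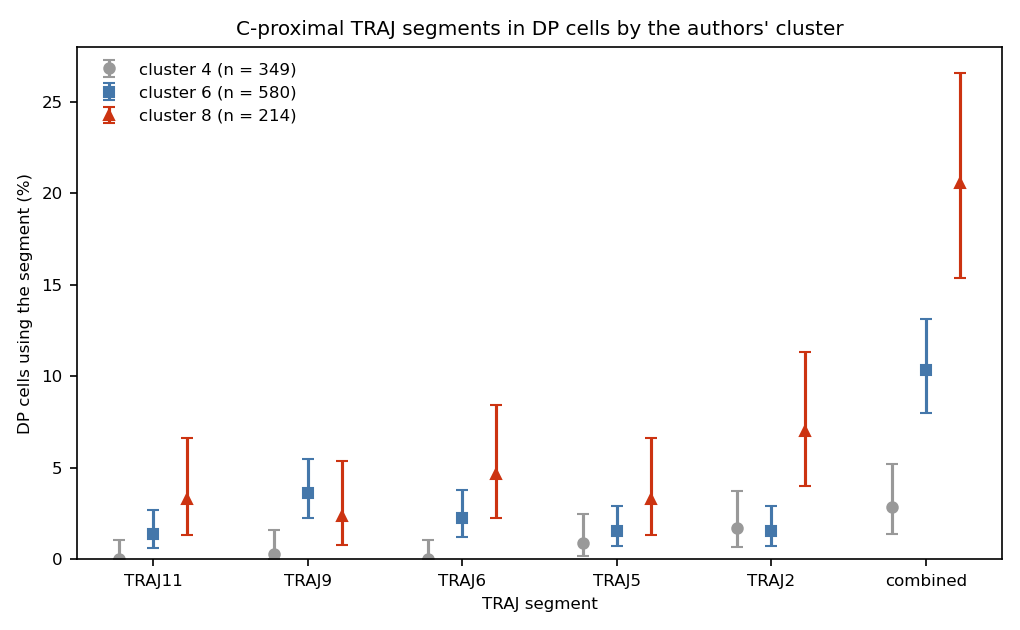
Share of DP cells using each segment (y axis, percent of DP cells of a cluster with exactly 1 productive TCRα chain) for TRAJ11, TRAJ9, TRAJ6, TRAJ5, TRAJ2 and their sum (x axis), in the authors' clusters 4, 6 and 8, with exact 95% intervals. The sum rises from 2.87% in cluster 4 to 10.3% in cluster 6 and 20.6% in cluster 8, and TRAJ2 stands at 7.01% in cluster 8.

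In cluster 8 against cluster 4, 2 of the 3 members with enough cells were higher (TRAJ2 and TRAJ6), where 11.5% of all segments read were higher and 30.8% were apart. In cluster 6 against cluster 4, 2 of 4 were higher (TRAJ6 and TRAJ9; 18.9% of segments higher, 35.1% apart). In cluster 8 against cluster 6, TRAJ2 was the only segment of the 30 read that was apart (3.33%). Depth and chain recovery moved with the clusters. The median was 1545 UMIs per cell in cluster 4, 1592 in cluster 6 and 1087 in cluster 8, and 29.4%, 69.7% and 27.8% of their cells had exactly 1 productive chain. In cells with at least 1000 UMIs the combined shares were 2.65% (1.22 to 4.97), 9.73% (7.42 to 12.5) and 17.3% (11.9 to 23.8), so that clusters 6 and 8 then overlapped. Calls on single segments between clusters, that on TRAJ2 included, were not repeated in such cells. In DP as a whole TRAJ2 stood at 1.84% (1.16 to 2.77) in such cells and at 2.37% in all cells. The part of chain recovery in the difference was not tested, and whether TCR transcripts entered the authors' clustering is not stated in these sources.

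In the later populations the larger clusters compared here overlapped in the combined share. In CD4 SP it was 9.76% in cluster 1 (69 of 707) and 11.2% in cluster 2 (80 of 713), with overlapping intervals. In CD25+ TRP it was 5.08% in cluster 5 (23 of 453, 3.25 to 7.52) and 8.96% in cluster 7 (32 of 357, 6.21 to 12.4), with overlap. In CD73+ Treg it was 5.43% in cluster 3 (20 of 368) and 4.70% in cluster 9 (11 of 234). The smaller clusters 5 and 10 of CD73+ Treg held 14.9% (7 of 47, 6.20 to 28.3) and 13.0% (6 of 46, 4.94 to 26.3), which overlap the interval of cluster 3 (3.35 to 8.27). Without all clusters under 5% of a population the CD73+ Treg share was 4.98% (3.60 to 6.70), and with them 6.91% (5.45 to 8.61). The small clusters of CD73+ Treg together thus stood above its larger ones.

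The V partner of the 5 segments differed from that of other chains. On chromosome 14 the TRAV14 copies lie upstream of the TRAJ segments in 3 groups: the D copies farthest from them (chr14:52855614-53079045), the N copies next (chr14:53166626-53370575), and TRAV14-1, TRAV14-2 and TRAV14-3 nearest (chr14:53554022-53763694). The copies are near-identical, so their assignment is uncertain and was taken as deposited. The J-proximal copies, that is TRAV14-1, TRAV14-2 and TRAV14-3, were joined to 9.23% of the 574 chains (53 cells, 6.99 to 11.9) and to 38.0% of the 6408 chains with other TRAJ segments (36.8 to 39.2). N copies were joined to 49.1% (45.0 to 53.3) against 32.4% (31.3 to 33.6), and D copies to 39.2% (35.2 to 43.3) against 27.4% (26.3 to 28.5). V genes outside TRAV14 were in 2.44% and 2.25%. In CD73+ Treg they were in 6.85% (5 of 73, 2.26 to 15.3) against 1.22% (0.632 to 2.12), with intervals apart. In the other populations the intervals overlapped, in DP at 2.34 to 11.5 for the 5 segments and 7.41 to 10.8 for other segments. By member, only TRAJ11 was apart from other segments (8.33%, 2.76 to 18.4, against 1.90 to 2.64). By different chains TRAJ11 overlapped them (2.96 to 19.6 and 2.79 to 3.88).

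The J-proximal copies were rarer with the 5 segments than with other segments in every population. The shares were 14.8% and 44.1% in DP, 5.43% and 35.6% in CD4 SP, 6.92% and 37.0% in CD25+ TRP, 14.6% and 38.6% in Foxp3lo TRP, and 11.0% and 37.3% in CD73+ Treg, each pair with intervals apart. In CD73- Treg, where the 5 segments had 17 chains, the shares were 5.88% (0.149 to 28.7) and 32.0% (25.7 to 38.9), which overlapped. In the use of D copies with the 5 segments only CD4 SP and CD73+ Treg were apart by cells, a pair without a background. D copies were in 44.6% of these chains in CD4 SP (37.3 to 52.1) and 21.9% in CD73+ Treg (13.1 to 33.1), and by different chains in 45.9% (37.3 to 54.7) and 21.2% (12.1 to 33.0). DP (40.2%, 31.4 to 49.4), CD25+ TRP (41.5%, 33.0 to 50.5), Foxp3lo TRP (41.7%) and CD73- Treg (23.5%) overlapped CD73+ Treg by cells. By different chains CD25+ TRP was just apart from CD73+ Treg (43.4%, 33.8 to 53.4). N copies overlapped between CD4 SP (50.0%, 42.6 to 57.4) and CD73+ Treg (60.3%, 48.1 to 71.5). With other TRAJ segments D copies were in 27.9% of CD4 SP (25.7 to 30.1) and 31.1% of CD73+ Treg chains (28.2 to 34.1), which overlapped. The mix of members differed too: TRAJ5, mostly joined to a D copy, made up 28.8% of these chains in CD4 SP (22.4 to 35.9) and 11.0% in CD73+ Treg (4.85 to 20.5). The part of this mix in the D copy difference was not tested.

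A low share of J-proximal copies was shared by neighbouring segments and was not particular to the 5. Among TRAV14 chains the share was 10.9% for TRAJ2 (7 of 64), 6.30% for TRAJ5 (8 of 127), 7.26% for TRAJ6 (9 of 124), 8.42% for TRAJ9 (16 of 190) and 23.6% for TRAJ11 (13 of 55, 13.2 to 37.0). Over all TRAV14 chains it was 36.4% (35.3 to 37.6). TRAJ2, TRAJ5, TRAJ6 and TRAJ9 lay below it with intervals apart and TRAJ11 overlapped it, where 36.6% of the 41 segments with at least 20 TRAV14 chains lay below and 53.7% above. Together the 5 segments stood at 9.46% (7.17 to 12.2) and the other segments within 20 kb of Trac at 11.3% (9.98 to 12.8). Segments numbered 40 and above stood at 72.9% (70.4 to 75.3). Across the 41 segments the share rose with distance from Trac with a Spearman correlation of 0.911, and within 20 kb it was 0.385 over 13 segments. These points share the libraries, the mice and the V gate.

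**Figure D3:**
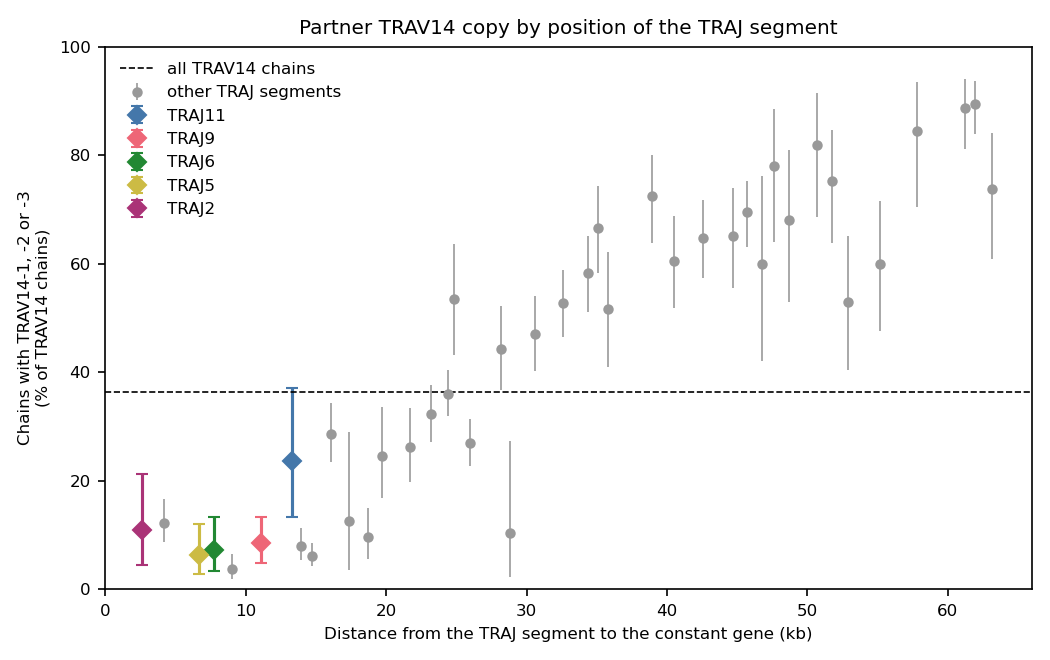
Share of TRAV14 chains that use TRAV14-1, TRAV14-2 or TRAV14-3 (y axis, percent) against the distance of the TRAJ segment from the constant gene (x axis, kb), for 41 TRAJ segments with exact 95% intervals, and a dashed line at 36.4% for all TRAV14 chains. TRAJ2, TRAJ5, TRAJ6 and TRAJ9 lie between 6.30% and 10.9% and TRAJ11 at 23.6%, among other segments near the constant gene.

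TRAV14D-3-DV8 was the copy most often joined to TRAJ5, TRAJ2 and TRAJ11, as to other TRAJ segments, while TRAJ6 and TRAJ9 had another leading copy by cells. TRAJ5 was joined to TRAV14D-3-DV8 in 63.1% of its cells (82 of 130, 54.2 to 71.4), against 24.8% of chains with other TRAJ segments, and in 56.0% (45.2 to 66.4) against 22.2% when each different chain was counted once. This copy was in 36.9% of TRAJ2 cells (25.3 to 49.8) and 31.7% of TRAJ11 cells (20.3 to 45.0), and both intervals overlapped that of other segments (23.8 to 25.9). TRAJ6 was joined to TRAV14N-1 in 42.2% of cells (54 of 128, 33.5 to 51.2) against 13.7%, and in 35.3% (26.1 to 45.4) against 14.9% of different chains. TRAJ9 was joined to TRAV14N-2 in 31.9% of cells (61 of 191, 25.4 to 39.1) against 8.63%, a value that dropped to 18.3% (12.1 to 26.0) against 6.86% by different chains. TRAJ5 and TRAJ6 thus kept their leading copy when clones were counted once. For TRAJ9 the leading copy was then TRAV14D-3-DV8 at 26.0% (18.7 to 34.3), whose interval overlaps that of TRAV14N-2, so that 4 of the 5 members then led with the same copy as other segments. TRAV14-1 was in 16.7% of TRAJ11 cells (8.29 to 28.5), as in other chains (19.2%), and in 1.56% to 3.08% of the cells of each other member.

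**Figure D4:**
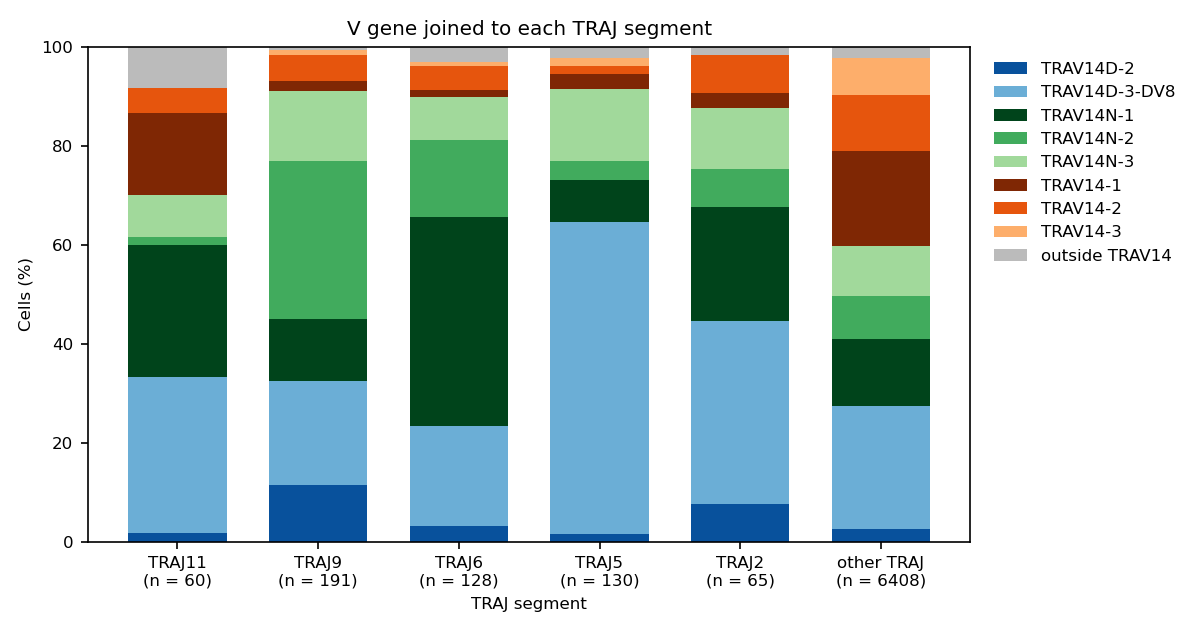
V gene joined to each of the 5 segments and to all other TRAJ segments, as stacked percent of cells (y axis), with the number of cells under each bar. TRAV14D-3-DV8 takes 63.1% of TRAJ5 cells, TRAV14N-1 42.2% of TRAJ6 cells and TRAV14N-2 31.9% of TRAJ9 cells.

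The 574 cells carried 318 different CDR3 amino acid sequences. Of these, 237 (74.5%) were seen in 1 cell, 63 (19.8%) in at least 2 populations and 8 in at least 4. Sequences found in 2 or more populations made up 32.8% of the 58 CDR3 of TRAJ5, 26.8% of the 71 of TRAJ6, 18.2% of the 44 of TRAJ11, 14.3% of the 49 of TRAJ2 and 10.4% of the 96 of TRAJ9. For 56 sequences more than 1 nucleotide sequence gave the same amino acids. Per 100 cells with the segments there were 55.4 different CDR3 in CD4 SP, 66.2 in CD25+ TRP, 78.1 in CD73+ Treg, 83.3 in Foxp3lo TRP and 88.5 in DP, and the 17 cells of CD73- Treg had 17. These values also depend on the number of cells counted, which ranged from 17 to 184.

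TRAJ9 held the most frequent CDR3 of the group, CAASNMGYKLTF, in 39 cells. Its cells were 22 CD4 SP, 11 CD25+ TRP, 2 DP, 2 CD73+ Treg, 1 Foxp3lo TRP and 1 CD73- Treg. It was encoded by 6 nucleotide sequences with 6 V copies, in 13 combinations, and 25 cells had the sequence shown above, which has no inserted base. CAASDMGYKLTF, which differs from it by 1 residue, was in 23 cells: 13 CD4 SP, 9 CD25+ TRP and 1 Foxp3lo TRP. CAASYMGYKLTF was in 9 cells: 3 DP, 2 CD4 SP, 3 CD25+ TRP and 1 CD73+ Treg. By cells the first 2 were thus mostly CD4 SP and CD25+ TRP sequences, and these populations also had the most chains. Of all chains, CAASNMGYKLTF made up 1.19% in CD4 SP (0.747 to 1.80) and 0.617% in CD25+ TRP (0.308 to 1.10). It made up 0.158% in DP (0.0191 to 0.569) and 0.189% in CD73+ Treg (0.0229 to 0.682). For both sequences CD4 SP lay above DP and CD73+ Treg with intervals apart, and CD25+ TRP overlapped both populations.

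These CDR3 share the form CAAS, 1 residue and MGYKLTF, and TRAJ9 chains were counted by that form of 12 residues, a split chosen after the values were seen. The form with asparagine (N) or aspartate (D) made up 62.5% of TRAJ9 chains in CD4 SP (35 of 56, 48.5 to 75.1) and 38.5% in CD25+ TRP (20 of 52, 25.3 to 53.0). Its share was 6.67% in DP (2 of 30, 0.818 to 22.1) and 5.41% in CD73+ Treg (2 of 37, 0.661 to 18.2). It was in 2 of 9 chains in Foxp3lo TRP and 1 of 7 in CD73- Treg. The CD4 SP and CD25+ TRP intervals lay above those of DP and CD73+ Treg and overlapped each other. With histidine or tyrosine the form was in 2 CD4 SP, 8 CD25+ TRP, 4 CD73+ Treg and 3 DP chains.
The other 31 of the 37 CD73+ Treg chains and 25 of the 30 DP chains did not have this form. With each different nucleotide sequence and V gene counted once, the form with N or D made up 37.5% of CD4 SP (21.1 to 56.3), 19.4% of CD25+ TRP (8.19 to 36.0), 6.90% of DP (0.846 to 22.8) and 6.25% of CD73+ Treg chains (0.766 to 20.8). The CD4 SP interval was then only just apart from that of CD73+ Treg and overlapped that of DP, and CD25+ TRP overlapped both.

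The germline TRAJ9 segment itself encodes N before MGYKLTF, so the residue was also read in CDR3 of any length. N or D then stood before MGYKLTF in 85.7% of TRAJ9 chains in CD4 SP (48 of 56, 73.8 to 93.6), 61.5% in CD25+ TRP (32 of 52, 47.0 to 74.7), 66.7% in DP (20 of 30, 47.2 to 82.7) and 54.1% in CD73+ Treg (20 of 37, 36.9 to 70.5). Only CD4 SP and CD73+ Treg were apart among these 4, and by different chains they overlapped (78.1%, 60.0 to 90.7, and 59.4%, 40.6 to 76.3).

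The frequent CDR3 of the other members were rarer. On TRAJ5, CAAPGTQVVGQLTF was in 15 cells (6 CD4 SP, 3 CD25+ TRP, 4 Foxp3lo TRP and 2 CD73+ Treg), by 6 nucleotide sequences on 1 V copy. The TRAJ5 sequence of 15 residues shown above was in 13 cells, of which 10 were CD4 SP, 2 CD25+ TRP and 1 DP, and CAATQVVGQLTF was in 8 (5 CD4 SP, 2 CD25+ TRP, 1 Foxp3lo TRP). These 3 sequences were in 21 of the 53 TRAJ5 cells of CD4 SP and in 1 of the 21 of DP. They were listed as the most frequent over all populations, and CD4 SP gave the most TRAJ5 cells. The listing thus favours CD4 SP, and no difference between the populations is drawn from these counts. On TRAJ6, the sequence of 13 residues shown above was in 13 cells (3 DP, 4 CD4 SP, 3 CD25+ TRP, 3 CD73+ Treg), all with 1 nucleotide sequence without inserted bases on 4 V copies.
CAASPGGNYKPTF, also on TRAJ6, was in 9 cells of 5 populations, and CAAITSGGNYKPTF was in 6 cells, 3 of them Foxp3lo TRP. On TRAJ2 the sequence of 16 residues was in 6 cells, 5 of them CD4 SP and 1 Foxp3lo TRP. It was in 0 of 1266 DP cells, where a count of 0 allows 0.237%, and DP had the most TRAJ2 cells. Its share in CD4 SP (0.270%, 0.0879 to 0.630) overlapped the DP interval, which reaches 0.291%. On TRAJ11, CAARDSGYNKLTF was in 5 cells of 4 populations.

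Over all populations pooled, junctions without inserted bases were more frequent with the 5 segments than with other segments. Over different TRAV14 chains, 12.4% had no inserted base between the germline ends (53 of 428, 9.42 to 15.9), against 7.61% of chains with other TRAJ segments (6.83 to 8.46). The share was 17.0% for TRAJ5 (9.87 to 26.6), 13.1% for TRAJ2 (5.84 to 24.2), 12.3% for TRAJ9 (7.20 to 19.2), 11.2% for TRAJ6 (5.74 to 19.2) and 5.88% for TRAJ11 (1.23 to 16.2). Of the members, only TRAJ5 had an interval above that of other segments. By population the members were apart from other segments only in CD25+ TRP (17.9%, 11.2 to 26.6, and 8.45%, 6.97 to 10.1). Bases that match a germline end by chance count as germline here. How often they match depends on the first bases of each segment, and the part of this in the difference was not tested.

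The CDR3 of TRAJ2, which has the longest germline J part, were the longest of the 5. The median was 16 residues for TRAJ2, 14 for TRAJ5 and 13 for TRAJ6, TRAJ9 and TRAJ11, against 14 for other segments. The median number of J bases lost was 5 in TRAJ6, 3 in TRAJ2, TRAJ5 and TRAJ9, 1 in TRAJ11 and 4 in other segments. Bases that match both germline ends were counted with TRAV14, so the number of J bases lost can be overstated. The length carried by most cells was 12 residues for TRAJ9 (53.4% of cells), where the frequent CAAS and MGYKLTF sequences lie, and 13 for TRAJ6 (55.5%).

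The shares over the 6 populations were compared with those of 31 other TRAJ segments with at least 50 cells, as a description over 6 points that share libraries and depth. TRAJ2 was most like TRAJ45 (Pearson r 0.988) and TRAJ37 (0.972), both farther from Trac. TRAJ45 stood at 2.13% in DP, 0.595% in CD4 SP and 0.189% in CD73+ Treg. TRAJ11 was most like TRAJ58 (0.901) and TRAJ52 (0.879), TRAJ5 most like TRAJ57 (0.863) and TRAJ12 (0.846), TRAJ9 most like TRAJ15 (0.776) and TRAJ40 (0.750), and TRAJ6 most like TRAJ17 (0.776) and TRAJ52 (0.560). The combined share was most like TRAJ52 (0.788) and TRAJ27 (0.653).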

How the data were processed

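Per the labels' protocols, the submitters prepared an RNA, a hashtag and a TCRα library from the same cells with a 10x Genomics 5' kit (v2). Per the submitters' processing notes, Cell Ranger 3.1.0 and Seurat 3.1.1 were used, with the builds mm10 and GRCm38. How cells were filtered, doublets treated and hashtags called is not given in the sources. The expression matrix holds UMI counts deposited by the authors for 12208 cells, used here only for depth. The deposited metadata give hashtag and cluster, and the deposited contig table gives V and J gene, CDR3 and UMI counts. Metadata were joined to the matrix by row position: clonotypes were equal for 6982 of 6982 cells. The hashtag class Treg was read as CD73- Treg.

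Members and lists were chosen with earlier results of these data known. Cells with exactly 1 productive α chain were used (330 had 2). Intervals came from scipy 1.17.1 (Python 3.11.15). Named CDR3 were the 3 most frequent per segment with at least 5 cells, and the 2 most similar segments by Pearson r needed at least 50 cells. Germline sequences and coordinates came from GENCODE M21 (GRCm38). Junction features used different TRAV14 chains (V gene, J gene and CDR3 nucleotide sequence). Scripts were tested on simulated data. Alternatives counted each different CDR3 once, used all productive contigs, TRAV14 chains only, at least 3 UMIs per contig or 1000 per cell, left out the most frequent CDR3, small clusters or cluster 9, or changed the call rule. Precision is limited by cells per population, lowest in CD73- Treg.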

Additional observations from a re-analysis of the deposited data

Results flagged for a closer look

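Alpha contigs outside the main count also carried the 5 segments and were not used for the shares. Among nonproductive α contigs of cells in the matrix, 22 of 323 used 1 of the 5 segments (6.81%, 4.32 to 10.1): 6 used TRAJ2, 6 TRAJ6, 4 TRAJ11, 3 TRAJ9 and 3 TRAJ5. Among the α contigs of cells with 2 productive chains, 56 of 660 did so (8.48%, 6.47 to 10.9): 19 used TRAJ9, 19 TRAJ6, 9 TRAJ5, 7 TRAJ11 and 2 TRAJ2. Both values overlap the 8.22% among cells with exactly 1 productive chain (7.59 to 8.89).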

How the results depend on the processing

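No paired analysis was possible because each population was 1 sorted sample and the 3 libraries were made from the same cells. Over all alternatives 64 combined shares moved by less than their interval and 2 by more. The 2 were in CD73+ Treg, 8.92% by different CDR3 and 4.98% without small clusters, against 6.91%. By different CDR3, called TRAJ segments dropped from 19 to 4 (CD4 SP with DP), 4 to 0 (CD25+ TRP with CD4 SP), 3 to 1 (Foxp3lo TRP with CD4 SP), 1 to 0 (CD25+ TRP with Foxp3lo TRP), 2 to 0 (CD73+ with CD73- Treg) and 11 to 7 (CD73+ Treg with DP); fewer sequences than cells enter that count. With a ratio of at least 2 in place of intervals, they dropped from 19 to 17 (CD4 SP with DP), the TRAJ5 call between CD25+ TRP and CD4 SP was lost, and they rose from 1 to 3 (CD25+ TRP with Foxp3lo TRP), 1 to 6 (CD73- Treg with CD25+ TRP), 0 to 11 (CD73- Treg with Foxp3lo TRP), 2 to 9 (CD73+ with CD73- Treg) and, within 1.5 times, 3 to 4 (Foxp3lo TRP with CD4 SP) and 11 to 15 (CD73+ Treg with DP). TRAJ9 chains of the form CAAS, N or D, MGYKLTF were 62.5% of cells and 37.5% of different chains in CD4 SP. Of the single-segment shares 237 moved by less than their interval and 3 by more, and of those of the J-proximal V copies 8 of 8 moved by less.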
